A study of Rattus norvegicus with 3 samples.

Results

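Copper enters, crosses and leaves cells by a short chain of proteins, and the 7 genes of that chain described here are the importers Slc31a1 and Slc31a2, the chaperones Atox1 and Ccs, the copper-pumping ATPases Atp7a and Atp7b, and Cp, which encodes the blood copper protein ceruloplasmin. They were chosen by gene symbol from 16629 genes and unnamed regions, and all 7 were present, each as 1 entry of the tables. They were picked with earlier results of these data known, above all the high night value of Atp7b, so their values are a description and no test was applied to them. All RNA came from adult rats of the Sprague-Dawley strain on a cycle of 14 light and 10 dark hours. Pineal glands were taken at ZT7 (zeitgeber time, hours after lights on), which is midday, and at ZT19, which is midnight. The comparison library, also from ZT7, combined equal amounts of RNA from 15 tissues. Of these, 7 were from the nervous system (retina, spinal cord, cerebellum, cortex, hindbrain, hypothalamus and midbrain), and the others were adrenal gland, pituitary, kidney, liver, lung, small intestine, heart and skeletal muscle. No genotype, drug or other treatment was given in the labels for any group. Each group was 1 poly(A) RNA library, so no value has a replicate check, and no p-value can be given. How many animals went into each library was not given in the sources used here.

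Copper is taken up through Slc31a1 (also called Ctr1), a channel-like trimer of the cell surface, while Slc31a2 (Ctr2) sits mostly in endosomes and lysosomes. In the cytosol, Atox1 carries copper to the ATPases and Ccs loads it into the superoxide dismutase Sod1. Atp7a and Atp7b are P-type ATPases that move copper into the Golgi, where secreted enzymes receive it, and out of the cell when copper is abundant. In humans, loss of ATP7A causes Menkes disease and loss of ATP7B causes Wilson disease. In the rat pineal gland a shortened product of Atp7b, known as PINA (pineal night-specific ATPase), has been described, and the deposited tables list PINA among the aliases of Atp7b.

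Levels are given in FPKM, fragments scaled by transcript length and by the number mapped in the library, so levels of different genes can be set side by side. Ratios are log2 ratios of FPKM + 1, a scale that understates the fold difference of low genes, and a gene was compared where at least 1 of the 2 libraries reached 1 FPKM. The files give no read counts. The value of 1 fragment was estimated from short receptor genes as 0.113 FPKM on 1 kb by day, 0.189 by night and 0.103 in the mixed tissues, so the night library had about 59.9% of the depth of the day library. The night estimate rests on 6 gene models, against 28 for each of the other libraries, and is rough: values taken as 2 fragments lay at 1.48 times the step by night and at 1.96 times by day. Counting bounds below are exact 95% Poisson or Clopper-Pearson bounds for 1 kb of transcript, narrower for longer transcripts and wider for shorter ones. They cover counting error alone and say nothing of differences between animals. Libraries of whole tissue cannot tell apart fewer cells of a type and less RNA per cell.

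The annotated start of Atp7b is shown beside those of both importers and of Sik1 and Dio2, the second and the third gene by likeness to Atp7b over the 3 libraries, because Atp7b, Sik1 and Dio2 were high by night and the importers were not. The sequences are from RefSeq on build GRCr8 and run 5′ to 3′ on the strand of the gene, from 250 bases before the start to 50 after it: chr16:76654475-76654774 (plus strand) for Atp7b, chr20:9958597-9958896 (minus) for Sik1, chr6:115410545-115410844 (minus) for Dio2, chr5:80830590-80830889 (plus) for Slc31a1 and chr5:80753368-80753667 (plus) for Slc31a2. Capitals mark TGACG on either strand (CGTCA on the other), the core of the cAMP response element, and TGCACNC or TGCGCNC on either strand, the core bound by the metal-sensing factor Mtf1.
Atp7b: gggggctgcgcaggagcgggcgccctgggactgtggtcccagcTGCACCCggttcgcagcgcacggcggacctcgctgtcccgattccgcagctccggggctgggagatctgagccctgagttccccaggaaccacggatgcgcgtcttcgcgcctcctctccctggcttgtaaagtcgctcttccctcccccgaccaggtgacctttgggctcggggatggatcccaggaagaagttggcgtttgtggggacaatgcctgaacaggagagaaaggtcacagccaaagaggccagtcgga
Sik1: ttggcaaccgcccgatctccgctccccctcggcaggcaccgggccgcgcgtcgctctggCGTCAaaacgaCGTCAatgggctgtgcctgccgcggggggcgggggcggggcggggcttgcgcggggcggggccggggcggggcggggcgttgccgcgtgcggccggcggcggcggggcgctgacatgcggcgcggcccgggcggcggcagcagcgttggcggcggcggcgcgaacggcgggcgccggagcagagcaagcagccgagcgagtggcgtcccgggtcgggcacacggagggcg
Dio2: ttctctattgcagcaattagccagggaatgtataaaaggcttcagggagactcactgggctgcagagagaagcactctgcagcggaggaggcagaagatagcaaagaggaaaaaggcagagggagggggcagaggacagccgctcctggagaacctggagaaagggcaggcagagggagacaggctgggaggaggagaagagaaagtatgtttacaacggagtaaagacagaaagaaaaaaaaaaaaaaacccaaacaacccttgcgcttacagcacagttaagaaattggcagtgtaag
Slc31a1: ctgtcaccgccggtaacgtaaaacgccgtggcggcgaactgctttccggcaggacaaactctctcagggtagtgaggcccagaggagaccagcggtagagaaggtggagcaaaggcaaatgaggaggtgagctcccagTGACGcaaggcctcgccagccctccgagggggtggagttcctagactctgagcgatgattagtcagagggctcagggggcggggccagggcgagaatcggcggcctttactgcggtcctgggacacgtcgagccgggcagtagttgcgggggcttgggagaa
Slc31a2: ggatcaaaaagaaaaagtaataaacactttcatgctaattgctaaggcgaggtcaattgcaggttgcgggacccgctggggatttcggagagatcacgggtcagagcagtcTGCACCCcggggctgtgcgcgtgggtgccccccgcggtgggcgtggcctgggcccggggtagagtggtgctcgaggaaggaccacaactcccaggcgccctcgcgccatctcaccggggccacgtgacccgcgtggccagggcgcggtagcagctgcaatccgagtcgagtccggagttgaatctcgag

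The Atp7b window held no TGACG and 1 metal response core, TGCACCC at positions 44 to 50 counted from its 5′ end. Sik1 held CGTCA at positions 60 to 64 and 71 to 75. The other night-high genes did not share this: Dio2 held neither motif, and Dclk3, the gene most like Atp7b, held no TGACG and 1 metal response core at 270 to 276. Slc31a1, whose level hardly differed between night and day, held TGACG at 139 to 143, and Slc31a2 held TGCACCC at 112 to 118. Of 33469 RefSeq windows of this length, 21.2% held TGACG and 24.2% held a metal response core. Of the windows of the 7 copper genes, 1 held TGACG and 3 held a metal response core (Atp7b, Slc31a2 and Ccs). TAATCC, the core bound by photoreceptor homeobox factors such as Crx, was in none of the 7 and in 7.17% of all windows, and the full element TGACGTCA was also in none and in 1.83% of all windows. TGACG is part of TGACGTCA, so these counts overlap. A match of letters is not a measured binding site, and the windows do not cover other start sites of Atp7b.

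Atp7b stood at 2.52 FPKM in the pineal gland by day, 132 by night and 2.07 in the mixed tissues. The night library was thus the high one, and the day gland and the mixed tissues lay close together. In FPKM, night was 52.3-fold above day (counting bounds 34.8 to 85.2), with a log2 ratio of 5.24 that ranked 8 among 9826 genes and regions compared. By night Atp7b was among the top 1.26% of all genes and regions by FPKM, at rank 209, and by day it was at rank 8160. The day gland over mixed tissues gave 1.22-fold (counting bounds 0.631 to 2.34), which is within counting error. The night gland was 63.9-fold above the mixed tissues, but those libraries differ in time as well as tissue. The gene lies at chr16:74607988-74680080 on rn4, the build of the deposited tables. Its single entry does not separate the full-length transcript from a shortened one. FPKM divides by the length of the whole gene model, so a transcript that covers part of the model receives a lower value than its own length would give.

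Atp7a, the sister ATPase (chrX:94192540-94249773, rn4), did not share this pattern. It was at 4.74 FPKM by day, 4.34 by night and 2.34 in the mixed tissues. Night over day was 0.915-fold, with counting bounds of 0.525 to 1.56 that include 1 (log2 -0.10). Day gland over mixed tissues was 2.03-fold in FPKM (counting bounds 1.18 to 3.51), and its log2 ratio of 0.78 on the FPKM + 1 scale was short of 2-fold. The balance of the pair therefore differed between libraries: Atp7b made up 34.7% of their summed FPKM in the day gland, 96.8% in the night gland and 46.9% in the mixed tissues. As a ratio of levels, Atp7b was at 0.532 times Atp7a by day and at 30.4 times by night.

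**Figure D1:**
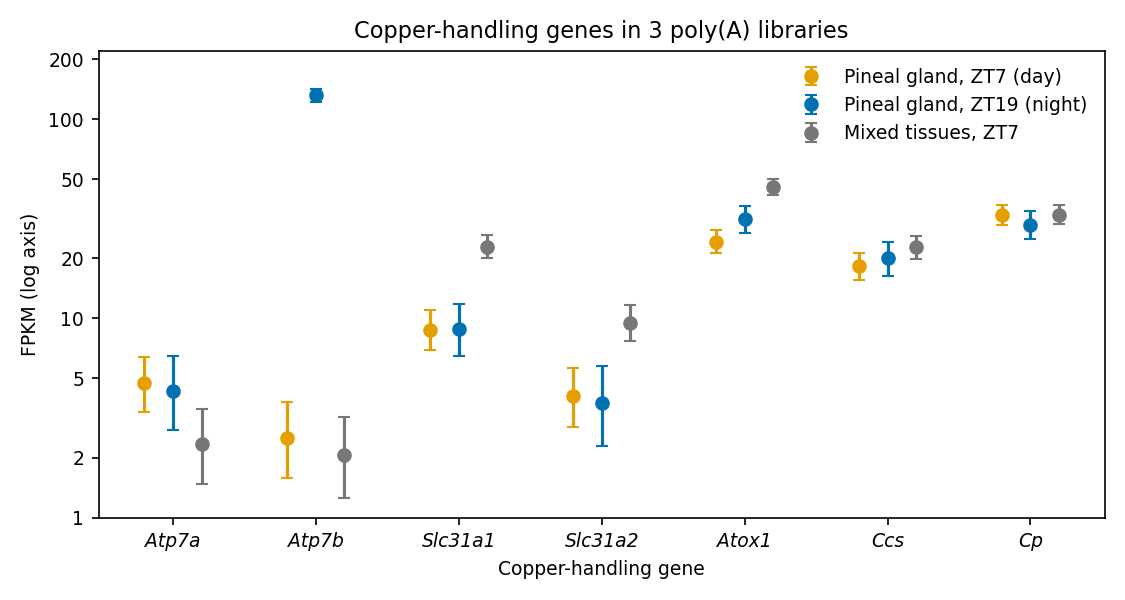
FPKM (log axis) of the 7 copper-handling genes in the pineal gland by day, the pineal gland by night and the mixed tissues, 1 library each, with bars for 95% counting bounds on 1 kb of transcript. Atp7b by night, at 132 FPKM, stands above every other point, and the day and night bars overlap for each of the other 6 genes.

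Of the 7 genes, 1 was at least 2-fold higher by night, Atp7b, against 4.18% of all genes and regions compared. None was at least 2-fold lower, against 2.11%. At 4-fold the counts were the same, 1 higher and 0 lower, beside 1.26% and 0.112% of all, and at 1.5-fold they were again 1 and 0, beside 8.18% and 11%. The members were chosen with these values known, so nothing is read from the shares. The other 6 had log2 ratios from -0.16 to 0.36 with a median of -0.05, beside a median of -0.11 over all genes and regions. Summed over the 7, FPKM was 95.8 by day and 229.8 by night, and without Atp7b it was 93.2 and 97.8. Atp7b thus went from 2.63% of the summed level by day to 57.4% by night.

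The importers were at the same level in the gland at both times and lower there than in the mixed tissues. Slc31a1 (chr5:79359420-79385988, rn4) was at 8.79 FPKM by day, 8.86 by night and 22.9 in the mixed tissues. Its night over day ratio was 1.01 (counting bounds 0.685 to 1.46), and the mixed tissues were 2.61-fold above the day gland (2.0 to 3.4; log2 -1.29 for day gland over mixed tissues). Slc31a2 (chr5:79281931-79292436), which lies 66983 bp away on the same chromosome, was at 4.10 by day, 3.75 by night and 9.54 in the mixed tissues. The mixed tissues were 2.33-fold above the day gland (1.58 to 3.55; log2 -1.05). The ratio of Slc31a1 to Slc31a2 was 2.14 in the day gland, 2.36 in the night gland and 2.40 in the mixed tissues, so the pair kept nearly the same proportion while its summed level was 12.9, 12.6 and 32.4 FPKM.

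In the day gland both chaperones were above the importers and the ATPases in FPKM. Atox1 (chr10:40858190-40873226, rn4) was at 24.3 FPKM by day, 31.5 by night and 45.6 in the mixed tissues. Night was 1.29-fold above day, with counting bounds of 1.05 to 1.6 on 1 kb of transcript. The length of the Atox1 transcript was not available, and bounds for a shorter transcript would be wider and could include 1. The night depth is also rough, and this small difference has no replicate check. The mixed tissues were 1.87-fold above the day gland (1.59 to 2.22; log2 -0.88). Ccs (chr1:207429928-207450996) was at 18.3 by day, 20 by night and 22.7 in the mixed tissues, with a night over day ratio of 1.10 (0.852 to 1.41) and a log2 ratio of -0.30 for day gland over mixed tissues. Sod1, the enzyme that Ccs loads, was at 162 by day, 166 by night and 211 in the mixed tissues, about as close between libraries as its chaperone.

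Ceruloplasmin, a ferroxidase that carries most copper in blood plasma and is made by liver and, in brain, by astrocytes, was the most abundant of the 7 in the day gland. Cp (chr2:105086278-105135367, rn4) was at 33.0 FPKM by day, 29.4 by night and 33.1 in the mixed tissues, with overlapping counting bounds in all 3 libraries. Night over day was 0.890-fold (0.725 to 1.08) and day gland over mixed tissues 0.998-fold (0.850 to 1.17). Of 7 hepatocyte markers found, 5 were listed at 0 in both pineal libraries (Alb, Fgb, Fga, Tat and Ahsg). Of all 16629 genes and regions, 3992 were listed at 0 by day and 4378 by night. The summed level of the hepatocyte markers was 6.5 FPKM by day, 2.65 by night and 3042 in the mixed tissues. Nearly all of it in the gland was Serpina1 (6.41 by day and 2.52 by night). Astrocyte markers were present, with 6 of 6 found above 0 and a summed level of 200 by day, 149.9 by night and 760.5 in the mixed tissues. Most of the gland's sum was Slc1a2 (72.6 by day, 74.2 in the mixed tissues) and Gja1 (81.4 and 70.7). The other 4 were at least 2-fold lower in the day gland, beside 28.9% of all genes and regions: Gfap (10.2 and 165), Aqp4 (9.13 and 93.7), Slc1a3 (4.85 and 61.8) and S100b (21.7 and 295). All 6 astrocyte markers were lower by night, by log2 -0.19 to -0.88, beside a median of -0.11 over all genes and regions. The part of astrocytes in the Cp level was not tested.

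Against the mixed tissues, 0 of the 7 genes were at least 2-fold higher in the day gland and 2 were at least 2-fold lower, the importers, beside 8.32% and 28.9% of the 11934 genes and regions compared. The median log2 ratio of the 7 was -0.30 and that of all genes and regions -0.273. At 4-fold 0 were higher and 0 lower, beside 2.29% and 13.2% of all, and at 1.5-fold 1 was higher (Atp7a) and 3 were lower (both importers and Atox1), beside 15.5% and 38.8%. The pool averages 15 tissues, so a gene high in 1 of them is diluted. When each log2 ratio was taken relative to the median of all genes, Atp7a passed 2-fold on the higher side (log2 1.06) and Slc31a2 no longer passed on the lower side. With that centring, 12% of all genes and regions were at least 2-fold higher and 23.2% lower.

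**Figure D2:**
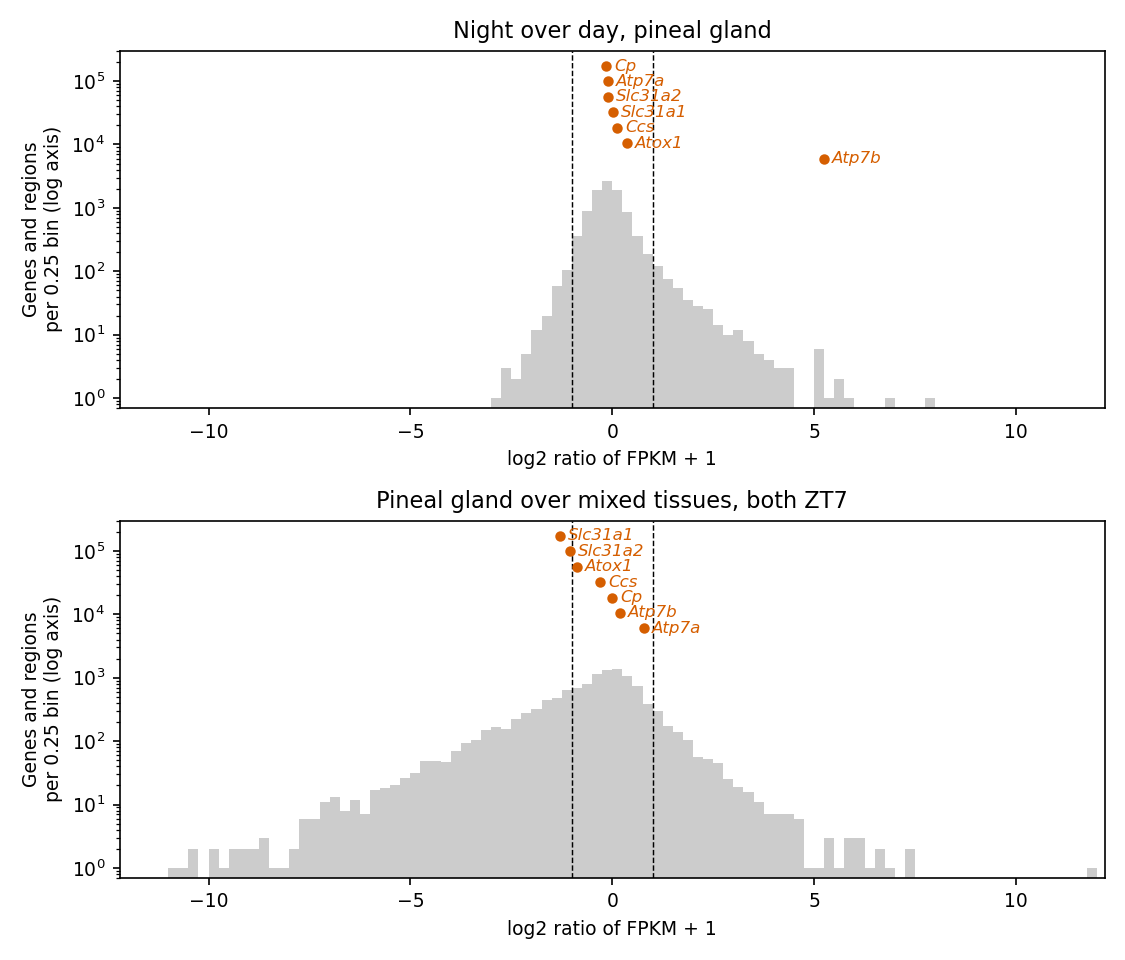
Histograms of log2 ratios of FPKM + 1 over all genes and regions compared (9826 for night over day, 11934 for day gland over mixed tissues; vertical axes are log scales), with the 7 copper-handling genes as orange points whose height carries no value and dashed lines at 2-fold. Atp7b lies far to the right by night over day, and the importers are the points beyond the lower line against the mixed tissues.

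Atp7b was also set beside the rest of its protein family, the P-type ATPases, which move ions or lipids across membranes. Of 34 listed genes 22 were found and 15 could be compared between night and day: 14 stayed within 2-fold, 0 lay below and 1 above that range by night, with a median log2 ratio of -0.05. Over all genes and regions 93.7% lay within 2-fold. The one above was Atp2b1, a plasma membrane calcium pump, at 11.2 FPKM by day, 24.5 by night and 38.6 in the mixed tissues (log2 1.06 for night over day). By night Atp7b, at 132 FPKM, was above Atp2a2, the calcium pump of the endoplasmic reticulum (44.9 by day, 67.3 by night), and Atp8b2, a lipid flippase (53.5 and 47.8).

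Against the mixed tissues 19 of the family were compared: 1 was at least 2-fold higher in the day gland (Atp8b2, 20.7 FPKM in the mixed tissues, log2 1.33), 8 were lower and 10 lay within 2-fold, with a median of -0.99. Over all genes and regions 8.32% were higher and 28.9% lower, with a median of -0.273. Among the 8 were the calcium pumps Atp2a2 (log2 -2.15), Atp2a3 (-3.29), Atp2b1 (-1.70), Atp2b2 (-3.38) and Atp2b3 (-2.79), and the flippase Atp8b1 (-1.34). Neither copper ATPase was among those at least 2-fold lower.

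**Figure D3:**
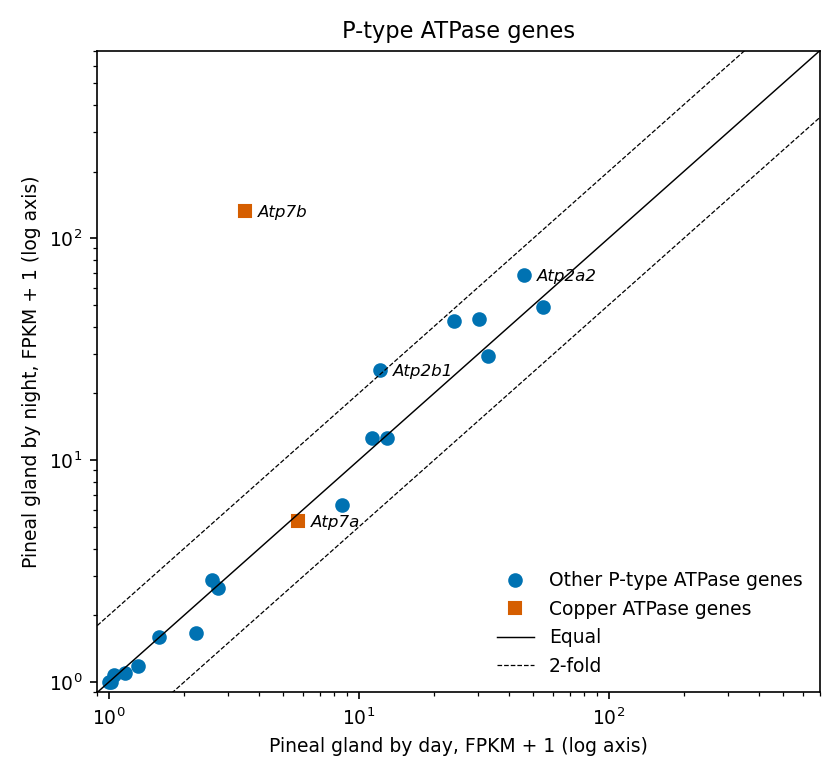
FPKM + 1 by night against FPKM + 1 by day (log axes) in the pineal gland for the copper ATPase genes (orange squares) and 18 other P-type ATPase genes (blue circles), with lines for equal levels and for 2-fold. Atp7b lies far above the 2-fold line, Atp2b1 just above it, and Atp7a and the rest between the lines.

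Enzymes that receive copper in the secretory pathway, where the ATPases deliver it, showed no difference like that of Atp7b. Of 17 listed genes 15 were found and 10 compared between night and day: 0 were at least 2-fold apart, and 9 of 10 log2 ratios were below 0 (median -0.43, range -0.68 to 0.12). Over all genes and regions 93.7% lay within 2-fold and the median was -0.11. Sod3, the extracellular superoxide dismutase, was at 95.3 FPKM by day, 95.1 by night and 34.0 in the mixed tissues. F5, coagulation factor V, a relative of ceruloplasmin, was at 34.2, 37.1 and 2.58. Loxl1, a lysyl oxidase of elastic fibres, was at 19.4, 12.8 and 15.1. Fibroblast and meningeal markers, among the cells that make lysyl oxidases, were at a summed level of 242 by day and 180.5 by night. Of these markers 5 of 6 were lower by night, with a median log2 ratio of -0.37, beside -0.11 over all genes and regions. The part of fibroblasts in the lysyl oxidase values was not tested.

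Against the mixed tissues 12 of these enzymes could be compared. In the day gland 2 were at least 2-fold higher, Sod3 (log2 1.46) and F5 (log2 3.30), and 6 were lower, beside 8.32% and 28.9% of all genes and regions. Pam, which amidates peptide hormones, was at 15.3 FPKM in the day gland and 51.2 in the mixed tissues (log2 -1.68). Heph, hephaestin, the ferroxidase most like Cp, was at 1.40 and 6.24 (log2 -1.59). Aoc3, a vascular amine oxidase, was at 2.5 and 14.0 (log2 -2.10), and Loxl2 at 1.36 and 4.17 (log2 -1.13). Dbh, which makes noradrenaline, and Abp1, a diamine oxidase, were listed at 0 in the day gland and at 2.38 and 8.69 in the mixed tissues.

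A further list held 10 genes for copper proteins of the cytosol and mitochondria or for their partners, such as the cytochrome oxidase subunits Cox4i1 and Cox5a. Of these, 9 were found. All 9 lay within 2-fold by night over day (median log2 -0.08), as did 93.7% of all genes and regions. All 9 also lay within 2-fold of the mixed tissues (median -0.38), beside 62.8% of all. The most abundant in the day gland were Cox4i1, a subunit of cytochrome oxidase (431 FPKM by day, 407 by night, 318 in the mixed tissues), Sod1, and Cox17, the chaperone that hands copper to cytochrome oxidase (153, 115 and 77.4). The nearest to 2-fold were Cox17 (log2 0.97 against the mixed tissues) and Slc25a3, the phosphate carrier that also admits copper to mitochondria (138 by day, 193 by night and 271 in the mixed tissues, log2 -0.96).

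Proteins that bind the ATPases, govern where they go in the cell or otherwise regulate copper handling formed a list of 9. All 9 of 9 log2 ratios of night over day lay within 2-fold, beside 93.7% of all genes and regions, with a median of 0.02. Commd1, which binds Atp7b, was at 70.0 FPKM by day, 98.6 by night and 24.6 in the mixed tissues (log2 0.49 for night over day and 1.47 for day gland over mixed tissues). Clu, clusterin, a chaperone that binds both copper ATPases, was at 751, 760 and 238 (log2 1.65 against the mixed tissues). Commd1 and Clu were the 2 of 9 that passed 2-fold over the mixed tissues, and none was lower, beside 8.32% and 28.9% of all. Ap1s1, a subunit of the adaptor that sorts cargo at the Golgi, was at 72.3, 66.7 and 38.9.

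Metallothioneins and glutathione hold metal ions in the cell. The list for them covers metallothioneins, enzymes that make or recycle glutathione, and the metal-sensing factor Mtf1. Between night and day 1 of 7 compared was at least 2-fold higher, Mt1a (0.245 FPKM by day, 3.21 by night and 1.71 in the mixed tissues, log2 1.76), and none was lower, with a median of 0.22, beside 4.18% and 2.11% of all genes and regions. The values of Mt1a and of Mt2A (0.228, 0 and 1.49) are uncertain, since RefSeq on GRCr8 names 3 pseudogenes of the metallothionein 1 gene whose reads could be confused with theirs. The day value of Mt1a is also below the estimated level of 3 fragments on 1 kb, 0.339 FPKM. Mt3, the brain metallothionein, was at 42.4 by day, 58.7 by night and 209 in the mixed tissues (log2 -2.27 for day gland over mixed tissues). Against the mixed tissues 5 of 8 were at least 2-fold lower and 0 higher, beside 28.9% and 8.32% of all: besides the 3 metallothioneins, these were the glutathione synthesis genes Gclc (12.4 by day and 73.1 in the mixed tissues, log2 -2.47) and Gclm (9.03 and 39.6, log2 -2.02). Gsr, glutathione reductase, was at 12.5 by day and 23.2 in the mixed tissues. Mtf1, the metal-sensing transcription factor, was at 10.6 by day, 12.5 by night and 4.8 in the mixed tissues. Its day level was 2.2-fold above the mixed tissues in FPKM, but on the FPKM + 1 scale it lay just under 2-fold, so it is not among the genes counted as higher.

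The genes that work beside ceruloplasmin in iron handling, and the metalloreductases that reduce copper and iron before uptake, had 6 of 6 compared within 2-fold by night over day (median log2 -0.07), beside 93.7% of all genes and regions. In the day gland 6 of 8 were at least 2-fold below the mixed tissues and 0 above, beside 28.9% and 8.32% of all. Tf, transferrin, was at 22.5 FPKM in the day gland and 918 in the mixed tissues (log2 -5.29), Tfrc, its receptor, at 4.96 and 27.8 (log2 -2.27), and Slc40a1, the iron exporter ferroportin that ceruloplasmin assists, at 1.07 and 7.00 (log2 -1.95). Cybrd1 (log2 -1.17) and Steap3 (log2 -1.59) are reductases, and Hamp, the liver hormone hepcidin, was listed at 0 in both pineal libraries and at 51.4 in the mixed tissues. Steap2, a metalloreductase of endosomes and Golgi, was at 16.4 by day, 17.8 by night and 8.40 in the mixed tissues (log2 0.89).

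**Figure D4:**
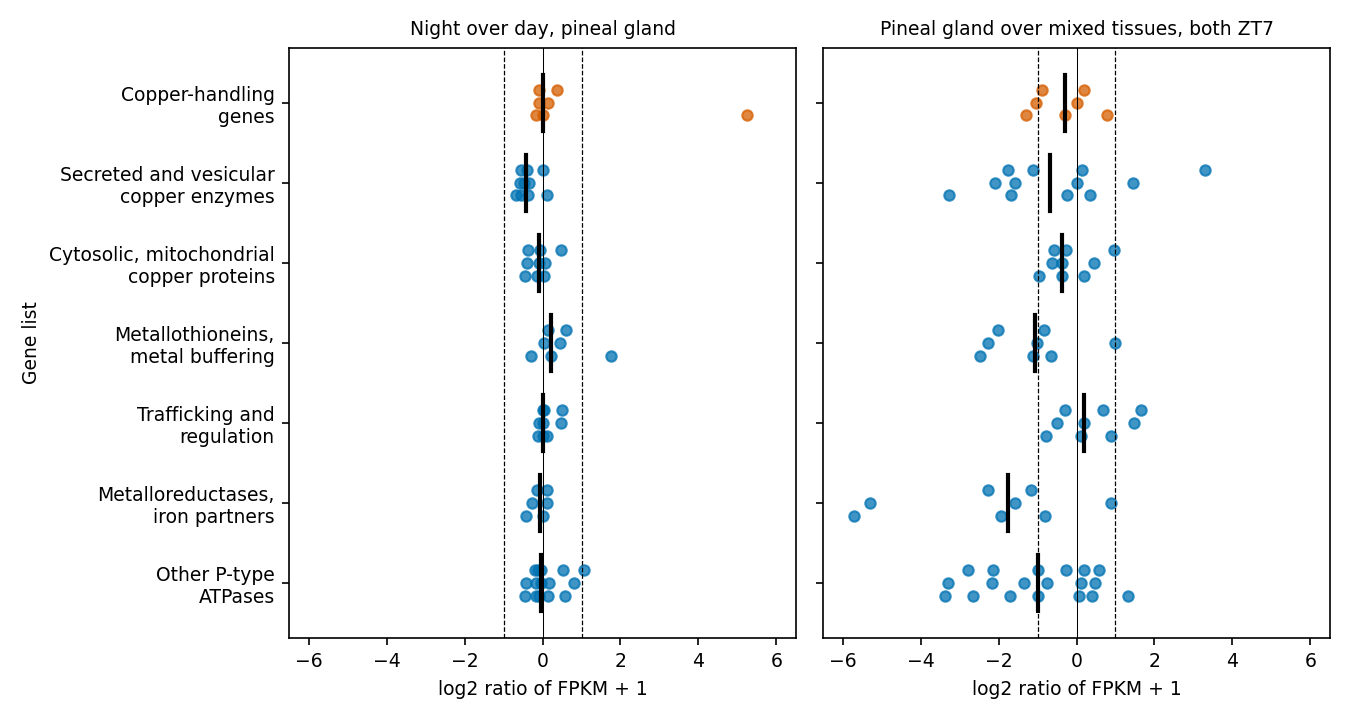
Log2 ratios of FPKM + 1 for single genes (points) and the list median (black bar) in the copper-handling genes and 6 related lists, for night over day (left) and day gland over mixed tissues (right), with dashed lines at 2-fold. By night over day most points of every list lie within 2-fold and Atp7b at 5.24 stands alone to the right. Against the mixed tissues the points other than Atp7b reach further to both sides, from -5.71 to 3.30. The list medians there run from -1.77 (metalloreductases and iron partners) to 0.19 (trafficking and regulation).

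The genes whose levels over the 3 libraries were nearest to those of Atp7b, by Euclidean distance of log2(FPKM + 1), were Dclk3, a doublecortin-like kinase gene (distance 0.33; 2.56 FPKM by day, 133 by night and 2.86 in the mixed tissues), Sik1, a salt-inducible kinase gene (distance 0.66; 1.72, 97.8 and 2.86), and Dio2, the deiodinase that activates thyroid hormone (distance 1.49; 0.464, 76.8 and 2.24). Of 15348 named genes, 2 lay within a distance of 1 from Atp7b. For the other copper genes between 619 (Atox1) and 1389 (Ccs) lay within that distance, so their patterns were common ones. With 3 libraries this likeness rests on 3 points per gene.

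No unnamed region and no other gene overlapped a copper gene. Alg11, a glycosyltransferase gene that ends 684 bp before Atp7b begins in coordinate order, was at 6.72 FPKM by day, 7.82 by night and 9.31 in the mixed tissues (log2 0.19 for night over day). The 18 genes, Alg11 included, that start within 100 kb of the start of a copper gene were not filtered at 1 FPKM. Their night over day log2 ratios ran from -0.81 to 0.92, all within 2-fold, beside 93.7% of all genes and regions compared. Glra1 was listed at 0 in both pineal libraries and Ccdc87 in the night library, so their ratios carry no information. Actn3 (0.16 by day and 0.19 by night) lay below the estimated level of 3 fragments on 1 kb, 0.339 and 0.567 FPKM. Hps3, 276 bp from Cp, was at 6.99, 6.91 and 3.82.

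The tissue labels held against marker genes. All 8 pinealocyte markers exceeded the mixed tissues by 2-fold or more in the day gland, beside 8.32% of all genes and regions. Their summed level was 8148 FPKM by day, 9438 by night and 448 in the mixed tissues. Tph1, the enzyme that begins serotonin synthesis, was at 4665 by day and 4245 by night, and Aanat, the melatonin rhythm enzyme, at 5.34 and 762. Summed markers of other cells were, by day and by night, 20.9 and 17.5 for endothelium (Cldn5 listed at 0 in every library), 49.2 and 43.9 for microglia, and 525 and 616 for choroid plexus, a tissue that also handles copper. The choroid plexus sum was nearly all Ttr (516 and 607), which the pineal gland itself is known to express. Of the other choroid plexus markers, Prlr was listed at 0 in both and at 13.0 in the mixed tissues. Folr1 was at 0.864 by day, 0.379 by night and 12.9 in the mixed tissues. The rest were nearer to the mixed tissues or above them: Kl (3.55, 2.94 and 4.81), Kcnj13 (1.94, 2.18 and 2.72) and Clic6 (3.51, 3.80 and 1.93). Whether the glands held choroid plexus was not tested. None of these lists, nor the astrocyte and fibroblast lists, had a member 2-fold higher by night, beside 4.18% of all genes and regions. With so low a share and such short lists, nothing is read from this.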

How the data were processed

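RNA was extracted with Trizol and column clean-up, selected for poly(A), fragmented, primed with random primers, amplified by PCR and sequenced as paired ends, 1 lane per library, per the labels' protocols. The authors deposited FPKM values for 17089 entries. Per the submitters' processing notes they used TopHat 1.3.1 and Cufflinks 1.2.0 with genome build rn4. For program options, strand use, duplicates and multi-mapped reads, the settings were not given in the sources used here. Unstranded counting, if used, would merge reads of overlapping antisense genes.

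Values of the series table and of the sample tables were identical in 51267 of 51267 cases. Entries of 1 symbol were summed. In the files starts count from 0 (1189 of 1192 olfactory receptor models then have a length divisible by 3), so 1 was added to each start. Ratios used a pseudocount of 1 and a filter at 1 FPKM, and 2-fold was the size counted as apart. The fragment step is the median of FPKM times length over receptor models of 800 to 1100 bases with values up to 1.6 times the lowest. Counting bounds used scipy 1.17.1. The ratio script was tested on simulated data. Samples were grouped by their labels. Alternatives were 2 other pseudocounts, 2 other filters, centring on the median, the highest entry per symbol, 1.5-fold and 4-fold, and RefSeq genes without the unnamed regions, the last chosen after seeing the data.

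The members, the lists and the naming rule were chosen with earlier results of these data known. The rule names the 7 members, from each other list the genes at least 2-fold apart and the 3 most abundant in the gland, the 3 genes of nearest pattern to a member, and entries overlapping a member or starting within 100 kb of it. Some genes that this rule names are not reported here, and they were left out of the plot of P-type ATPases but not of the counts.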

Additional observations from a re-analysis of the deposited data

How the results depend on the processing

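The 1 copper gene at least 2-fold higher by night, Atp7b, and the 0 lower stayed so under all 9 alternatives run, and the log2 ratio of Atp7b ranged from 4.19 with a pseudocount of 5 to 5.65 with one of 0.1. The filter at 5 FPKM compared 5 of the 7 genes between night and day, without Atp7a and Slc31a2. Atp7b passed that filter by its night value alone, so the setting is no check on Atp7b. The highest entry per symbol, RefSeq genes alone and no filter are no check on any member either. Each member has 1 entry, for a RefSeq transcript, and all 7 already passed the filter at 1 FPKM, so their ratios could not change. Against the mixed tissues the counts depended on the setting. A pseudocount of 5 left 1 member lower (Slc31a1) in place of 2. Centring on the median of all genes gave 1 higher (Atp7a) in place of 0 and 1 lower (Slc31a1). At 4-fold 0 were lower, and at 1.5-fold 1 was higher (Atp7a) and 3 were lower. Centring also turned the night over day log2 ratios of Atp7a and Slc31a2 from -0.10 to 0.01, far inside their counting bounds. No paired analysis was possible because each group had 1 library. For the same reason no library could be left out. The depth, lowest by night, limits statements on low values: 3 fragments on 1 kb correspond to 0.339 FPKM by day, 0.567 by night and 0.308 in the mixed tissues.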

Other observations

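The genes of nearest pattern over the 3 libraries to the remaining copper genes are given as values, with no reading of shared function. Nearest to Cp was Ube2z, a ubiquitin-conjugating enzyme gene, at 31.9 FPKM by day, 29.9 by night and 32.7 in the mixed tissues (distance 0.06). Nearest to Ccs was Mrps26, a mitochondrial ribosomal protein gene (18.5, 21.0 and 24.0, distance 0.10), and nearest to Atox1 was Map2k1, a MAP kinase kinase gene (27.7, 33.0 and 43.7, distance 0.20). Slc31a2 was closest to Cfp, properdin (4.32, 3.78 and 9.02, distance 0.10), and Atp7a to Gpatc2 (4.82, 4.86 and 2.35, distance 0.14). Other near genes were Luc7l2 and Psmd12 for Cp, Dpy19l1 and Ss18 for Ccs, Ppa1 and Pgrmc1 for Atox1, Sgcb and Epb41l3 for Slc31a1, Lsm1 and Slc35e3 for Slc31a2, and Abcc10 and Pygo1 for Atp7a, all at distances from 0.07 to 0.22. Near Ccs, the RNA-binding protein genes Rbm4b (6.14 by day and 12.5 by night, log2 0.92) and Rbm4 (10.8 and 18.5, log2 0.73) had the highest night over day ratios of the 18 neighbours, and Zdhhc24, a palmitoyltransferase gene (9.34 and 4.91, log2 -0.81), the lowest.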
